A study of Mus musculus with 6 samples.

Results

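The genes described here are the Wnt ligands, the proteins that make, carry and read out their signal, and the target genes that report it, in cultured mouse embryos. The set was defined by gene symbol and holds every gene named Wnt plus a number together with 24 further genes of the pathway. It was chosen with earlier results of these data known. It comprised 43 genes, of which 42 were measured among the 19938 genes that the array annotation named singly. Tcf7, a transcription factor of the pathway, was not named by any array feature and is not analysed here. Where several features named a gene, which among these members was the case for Wnt4, the feature with the highest mean signal was used.

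Embryos of the outbred CD1 strain were taken at embryonic day 5.0 and kept for 8 hours in cavities of 90 µm (narrow) or 180 µm (wide) diameter, to compare embryos with and without external mechanical cues. Each group had 3 samples, numbered 1 to 3 in the labels, and each sample was the total RNA of 30 whole embryos on an Affymetrix Mouse Gene 1.0 ST array. Both groups shared strain, stage and culture time and differed in cavity diameter. The replicates are called biological, so p-values measure the spread between pools of embryos. In such pools fewer cells of a type and less RNA per cell cannot be told apart, and the tissues of the embryo were measured together.

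Values are log2 signals that had been normalized between arrays, with array medians from 7.62 to 7.67. The lowest correlation between any pair of arrays, taken across genes, was 0.9983. As no background measure came with them, the 95th percentile of 1027 olfactory receptor genes, 6.79, served as a description of dim signal. All 10 epiblast, 10 extraembryonic ectoderm and 12 general visceral endoderm markers lay above it. So did all 8 parietal endoderm markers, 6 of 8 decidua and stroma markers and 3 of 6 measured blood cell markers. The decidual Prl8a2 and Prl3c1 and the blood cell genes Ptprc, Lyz2 and Itgam lay below it. Among the 42 Wnt pathway genes, Wnt1, Wnt2, Wnt8b, Rspo2 and Lgr5 were dim in this sense and the other 37 were not, and a dim signal does not show whether a gene was transcribed.

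Wnt proteins are secreted, lipid-modified ligands that bind Frizzled receptors together with the co-receptor Lrp5 or Lrp6. In the canonical branch this stops a complex built on Axin and Apc from marking beta-catenin for destruction, and beta-catenin then acts with TCF/LEF factors in the nucleus. In the mouse embryo, Wnt3 and beta-catenin are needed to form the primitive streak after the stage studied here, and the distal visceral endoderm secretes inhibitors of the pathway.

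TCF/LEF factors recognise DNA with the core CTTTGAT, and the start regions of the members were searched for it to show what such a site looks like in this gene set. RefSeq start regions of build GRCm38.p6 matched 28 of the 42 measured members by symbol, with 37 start sites in all, and the 250 bases before each start were read on both strands. The core stood in 3 of these 37 windows, of Sp5, Wnt11 and Wnt5b, and in 3.21% of all 32851 windows of the same length. It was not found in the window of Axin2. A match is a description of the letters and not evidence of binding. The 3 matches are shown with 10 bases on either side, 5′ to 3′ on the strand that reads CTTTGAT, with this core in capitals.
Sp5: gcaaggccccCTTTGATcaggaaaatc
Wnt11: cggaccgtcgCTTTGATccgcccacgt
Wnt5b: gtaagtctctCTTTGATctgctccctg

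These stretches lie at chr2:70474809-70474835 (Sp5, plus strand), chr7:98835051-98835077 (Wnt11, printed from the minus strand of a plus-strand gene) and chr6:119449441-119449467 (Wnt5b, minus strand). The core ended 98 bases before the start of Sp5, 45 before that of Wnt11 and 65 before that of Wnt5b. Sp5, a transcription factor gene that is a direct target of beta-catenin, is shown with its whole window, chr2:70474673-70474922, on the plus strand, because its level is a common readout of the pathway.
Sp5: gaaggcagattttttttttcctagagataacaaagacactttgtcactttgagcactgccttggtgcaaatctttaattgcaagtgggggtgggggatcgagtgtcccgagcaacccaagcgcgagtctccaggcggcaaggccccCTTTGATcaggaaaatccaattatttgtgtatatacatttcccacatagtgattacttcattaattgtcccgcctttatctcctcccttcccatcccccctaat

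No gene of the set was called different between the cavities. By count, 0 of the 42 genes passed a fit across all 19938 genes (limma, Benjamini-Hochberg adjusted p = 1.00 for every member), as 0% of all genes did. At an unadjusted p under 0.05 there was 1 member higher in narrow cavities, Rspo3, where 1.68% of all genes were higher, and 0 lower, where 1.72% were. Differences (narrow minus wide) were positive for 22 members and negative for 20, with a median of 0.006 on the log2 scale, and 0.001 over all genes. They ran from -0.10 for Wnt4 to 0.23 for Rspo3. Narrow and wide samples did not overlap for Rspo3, with narrow above (4.17% of all genes), and for Apc, with narrow below (3.54% of all genes). Counts of this size are near those of the background.

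The spread between pools set bounds on these differences. The median standard error was 0.057 over members and 0.053 over all genes. The 95% interval of the difference lay within 0.32 of 0 on the log2 scale for 41 of 42 members and for 96.3% of all genes. Rspo3 was the exception, and its interval stayed within 1.5-fold.

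**Figure D1:**
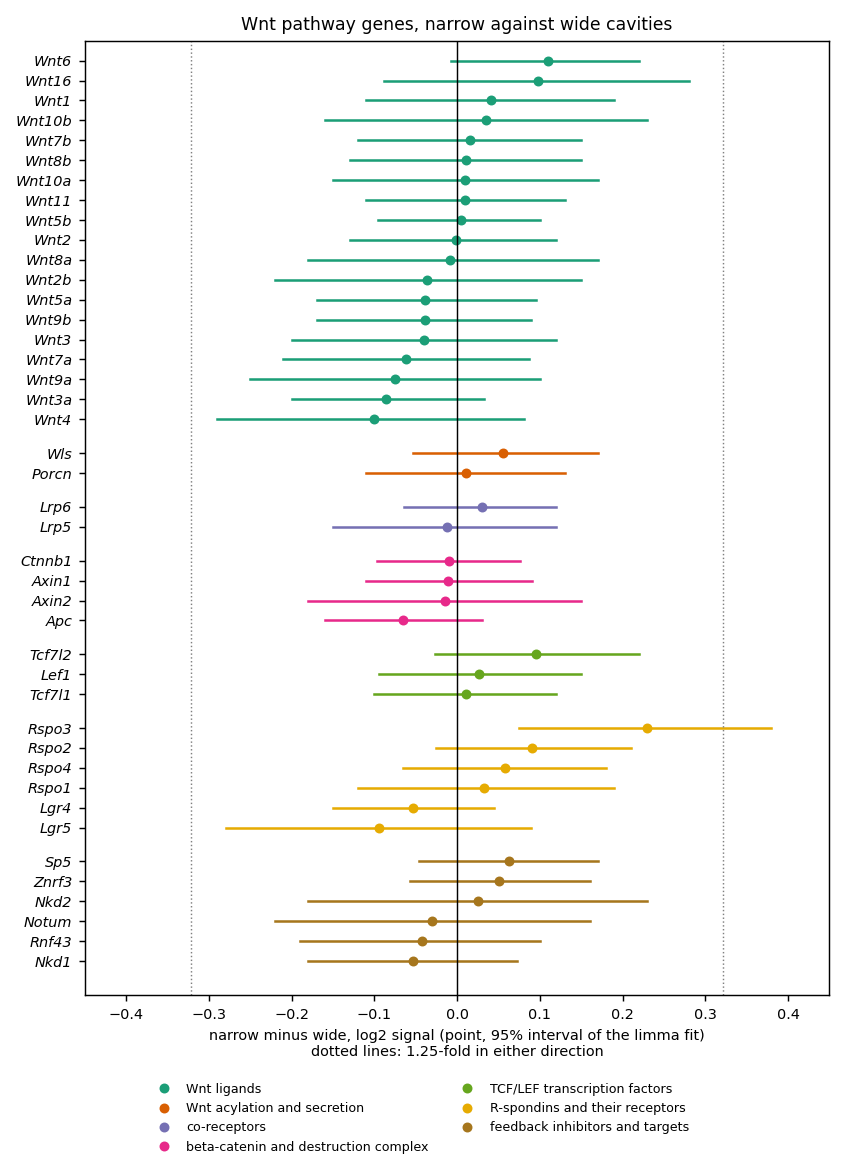
Difference in log2 signal between narrow and wide cavities for each of the 42 genes, grouped and coloured by role; points are limma estimates, bars their 95% intervals, and dotted lines mark 0.32 on either side of 0. The interval of Rspo3 alone leaves the dotted lines, and the points of all other members lie between -0.10 and 0.11.

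Among the 19 ligands, 9 differences were positive and 10 negative, with a median of -0.002, and 0 had an unadjusted p under 0.05. Wnt6, a ligand of epithelial tissues, had log2 signals of 8.90, 8.84 and 8.91 in narrow 1 to 3 and of 8.71, 8.76 and 8.86 in wide 1 to 3. Wide 3 reached into the narrow range, so the groups overlapped, and the difference of 0.11 ± 0.05 (SE) had an unadjusted limma p of 0.0629. Wnt6 lay higher in narrow in all 3 same-numbered pairs. With the replicate number as a block its unadjusted limma p was 0.0431.

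Wnt3, the ligand needed for the primitive streak, gave 8.14, 8.40 and 8.34 in narrow samples and 8.30, 8.30 and 8.41 in wide ones. Narrow 1 was the lowest and the other samples intermixed, and the difference was -0.040 ± 0.071 (95% interval -0.20 to 0.12). Wnt3a, a close relative that acts in the streak and tail bud, gave 7.18, 7.31 and 7.30 in narrow and 7.29, 7.36 and 7.39 in wide samples. It was lower in narrow in all 3 pairs, by 0.11, 0.05 and 0.10, but the groups overlapped and the difference of -0.086 ± 0.051 had an unadjusted limma p of 0.132.

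Wnt4, a ligand known from kidney and gonad development, was the member with the most negative difference and also the one whose features disagreed. Its brighter feature gave 7.58, 7.82 and 7.74 in narrow and 7.67, 7.89 and 7.89 in wide samples, a difference of -0.10 ± 0.08. Its unadjusted limma p was 0.233, and 0.0315 with the replicate block. Its dimmer feature gave 7.45, 7.67 and 7.55 in narrow and 7.49, 7.43 and 7.34 in wide samples, a difference of 0.14 ± 0.07. Its unadjusted limma p was 0.0823. The direction of Wnt4 thus depends on the feature read.

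The remaining ligands had differences from -0.075 to 0.098, each with a 95% interval that spans 0. Above 0 were Wnt16 (0.098 ± 0.081), Wnt1 (0.041 ± 0.065), Wnt10b (0.035 ± 0.084), Wnt7b, made by many epithelia (0.015 ± 0.059), Wnt8b (0.011 ± 0.060), Wnt10a (0.0095 ± 0.068), Wnt11 (0.0089 ± 0.053) and Wnt5b (0.0041 ± 0.043). Below 0 were Wnt9a (-0.075 ± 0.078), Wnt7a (-0.062 ± 0.065), Wnt5a, the main ligand of the planar polarity branch (-0.039 ± 0.058), Wnt9b (-0.039 ± 0.056), Wnt2b (-0.037 ± 0.079), Wnt8a (-0.0085 ± 0.076) and Wnt2 (-0.0019 ± 0.055). Among them are the Wnt11 and Wnt5b genes whose start regions hold the core printed above.

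The enzyme and the carrier that ligands need to leave the cell had small positive differences. Porcn, which attaches the lipid, had a difference of 0.011 ± 0.052. Wls, which carries the ligand to the cell surface, had log2 signals of 10.27, 10.23 and 10.28 in narrow and 10.17, 10.15 and 10.28 in wide samples, a difference of 0.056 ± 0.048. Of the co-receptors, Lrp5 stood at -0.012 ± 0.059 and Lrp6 at 0.030 ± 0.041.

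All 4 genes of beta-catenin and its destruction complex had negative differences, 3 of them within 0.015 of 0. Ctnnb1, the beta-catenin gene, lay between 12.86 and 12.90 in all 6 samples, a difference of -0.010 ± 0.038 (95% interval -0.097 to 0.076). Axin1, the scaffold of the complex, stood at -0.011 ± 0.044. Axin2, a scaffold that is itself induced by the pathway, gave 8.88, 9.04 and 9.14 in narrow and 8.95, 9.07 and 9.09 in wide samples. The highest and the lowest value of Axin2 both came from narrow cavities, and the difference was -0.015 ± 0.072 (95% interval -0.18 to 0.15).

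Apc, which holds beta-catenin in the complex, gave 11.02, 11.09 and 11.09 in narrow and 11.15, 11.14 and 11.11 in wide samples. All narrow samples lay below all wide ones, by a margin smaller than the spread within the groups. The difference of -0.066 ± 0.042 had an unadjusted limma p of 0.153.

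The 3 measured TCF/LEF factors had positive differences, and 0 had an unadjusted p under 0.05. Tcf7l2 gave 9.84, 9.80 and 9.88 in narrow and 9.82, 9.65 and 9.75 in wide samples, a difference of 0.095 ± 0.053. Its unadjusted limma p was 0.111. It was higher in narrow in all 3 pairs, though wide 1 lay above narrow 2. Lef1, a factor that is also a target, gave 9.59, 9.63 and 9.51 in narrow and 9.60, 9.58 and 9.48 in wide samples. Its groups overlapped, with a difference of 0.026 ± 0.052. Tcf7l1, the repressive factor of pluripotent cells, stood at 0.011 ± 0.048.

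R-spondins are secreted proteins that raise Wnt signalling by binding Lgr receptors and withdrawing the ubiquitin ligases Rnf43 and Znrf3 from the cell surface. Rspo3 had log2 signals of 8.55, 8.55 and 8.40 in narrow samples and 8.38, 8.17 and 8.25 in wide ones. The lowest narrow value, of narrow 3, was just above the highest wide value, of wide 1. The difference was 0.23 ± 0.07 (SE), or 1.17-fold, with a 95% interval from 0.075 to 0.38 and an unadjusted limma p of 0.00904 (adjusted p = 1.00).

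The difference of Rspo3 was positive in all 3 pairs, at 0.17, 0.38 and 0.14. It ranged from 0.18 to 0.29 when each sample was left out in turn, and its unadjusted limma p from 0.00293 to 0.0358 over 14 alternatives, with the adjusted p at 0.674 or more. Beside it, 8 of 12 markers of the distal visceral endoderm had positive differences, with a median of 0.082. Of the 12, Otx2 also served as an epiblast marker and Foxa2 as a general visceral endoderm marker. At an unadjusted p under 0.05, 5 of the 12 were higher in narrow, where 1.68% of all genes were. Among these 5 were Cer1, a Nodal antagonist, and Sfrp1 and Fzd8, and all of these also stand on the pathway lists read below. Dkk1 (-0.059 ± 0.042) and Sfrp5 (-0.030 ± 0.063), markers that stand on those lists too, had negative differences. The log2 of the summed signal of the 12 markers ran from 13.69 to 13.81 in narrow and from 13.58 to 13.70 in wide samples. All 12 lay above the dim limit. Their part in the difference of Rspo3 was not tested. This marker list was chosen with earlier results of these data known, so its counts are a description and not a test. Median differences of the other marker lists were -0.008 for the general visceral endoderm and -0.017 for the extraembryonic ectoderm. At an unadjusted p under 0.05, 1 of 12 general visceral endoderm markers was higher, where 1.68% of all genes were. At the same level 2 of 10 extraembryonic ectoderm markers were lower, where 1.72% of all genes were. The medians were -0.026 for the epiblast, 0.038 for the parietal endoderm, 0.016 for decidua and stroma and 0.004 for blood cells, with 0 markers at this level in either direction.

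The other R-spondins had smaller positive differences. Rspo2, which was dim, gave 6.32, 6.44 and 6.41 in narrow and 6.24, 6.28 and 6.37 in wide samples, a difference of 0.091 ± 0.051. Its unadjusted limma p was 0.111. Narrow 1 lay below wide 3, so its groups overlapped. Rspo4 stood at 0.058 ± 0.054 and Rspo1 at 0.033 ± 0.067.

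The R-spondin receptors had negative differences instead. Lgr5, a receptor and target gene that marks stem cells of several adult tissues, was dim and gave 6.32, 6.48 and 6.59 in narrow and 6.44, 6.62 and 6.61 in wide samples. It was lower in narrow in all 3 pairs, with overlapping groups and a difference of -0.094 ± 0.079. Lgr4 had a difference of -0.053 ± 0.042 and was also lower in all 3 pairs.

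**Figure D2:**
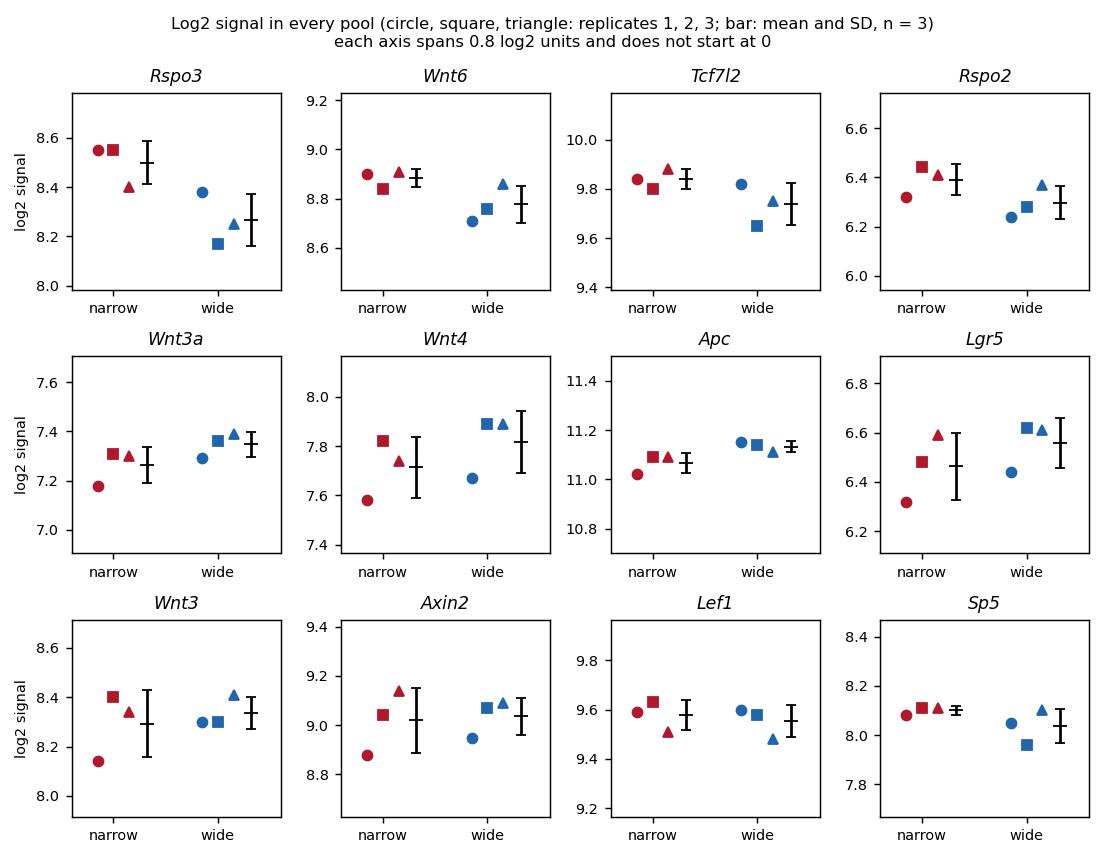
Log2 signal of 12 genes in each of the 6 pools, narrow in red and wide in blue, with symbols for the replicate number and bars for mean and SD (n = 3). Rspo3 and Apc are the panels without overlap between cavities. In Wnt3a, Wnt4, Lgr5 and Axin2 the circles of replicate 1 in both cavities lie below all other symbols.

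Targets and feedback inhibitors split evenly, with 3 positive and 3 negative differences and a median of -0.003. Sp5, whose start region is printed above, gave 8.08, 8.11 and 8.11 in narrow and 8.05, 7.96 and 8.10 in wide samples, a difference of 0.063 ± 0.047 (95% interval -0.046 to 0.17). Wide 2 was low and wide 3 lay within the narrow range. Znrf3, a ubiquitin ligase that removes Frizzled receptors, stood at 0.051 ± 0.047 and its relative Rnf43 at -0.042 ± 0.063. Nkd1 and Nkd2, inhibitors that act on Dishevelled, stood at -0.054 ± 0.055 and 0.025 ± 0.089. Notum, which strips the lipid from Wnt ligands, stood at -0.031 ± 0.081.

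Over same-numbered pairs, 7 members were higher in narrow in all 3, where 14.8% of all genes were. They were Wnt6, Lrp6, Tcf7l2, Rspo2, Rspo3, Sp5 and Znrf3. In all 3 pairs 8 members were lower, where 13.9% of all genes were, namely Wnt3a, Wnt4, Lrp5, Ctnnb1, Apc, Lgr4, Lgr5 and Nkd1. With the replicate number as a block, unadjusted p was under 0.05 for 2 members higher in narrow, Rspo3 and Wnt6, and for 1 lower, Wnt4, where 3.54% and 3.72% of all genes were. No member passed after adjustment with the block (limma, lowest adjusted p = 0.674).

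Other genes of the pathway were read from 7 lists, which were chosen with earlier results of these data known. They held 72 genes, of which 71 were measured. By limma 0 of them passed over all genes, and the median difference was 0.010. At an unadjusted p under 0.05, 5 were higher in narrow, where 1.68% of all genes were, and 1 lower, where 1.72% were. With the replicate block these counts were 9 higher (3.54% of all genes) and 3 lower (3.72%), with 0 passing after adjustment by limma. The lowest adjusted limma p with the block was 0.0838, of Cer1, which was also the lowest of all genes. Without the block, 2 of 10 Frizzled receptors were higher at an unadjusted p under 0.05, Fzd5 (0.32 ± 0.07) and Fzd8 (0.33 ± 0.08), and the median was 0.028. Among 4 other Wnt receptors 1 was higher, Ror1, a receptor kinase for Wnt5a, and the next was Ptk7 at 0.031 ± 0.041. Ror1 gave 9.43, 9.52 and 9.46 in narrow and 9.26, 9.26 and 9.42 in wide samples, without overlap, a difference of 0.15 ± 0.055. Its unadjusted limma p was 0.0233.

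On the list of 13 secreted antagonists 2 genes were higher at this level, Cer1 (0.70 ± 0.13) and Sfrp1 (0.14 ± 0.05). The median of the list was -0.024. Cer1 is a Nodal antagonist, and its place on this list is not a statement that it acts on Wnt ligands in the mouse. Of 9 measured further target genes 1 was lower, the streak factor Mixl1 (-0.14 ± 0.04), and Ascl2, a trophoblast factor, stood at 0.21 ± 0.12. In 17 cytoplasmic transducers (Csnk1g1 at 0.085 ± 0.052, Gsk3b at 0.059 ± 0.040), 10 nuclear co-factors (Chd8 at -0.063 ± 0.041, Pygo2 at 0.058 ± 0.040) and 8 planar polarity genes (Celsr1 at 0.091 ± 0.041, Prickle1 at 0.037 ± 0.048), 0 had an unadjusted p under 0.05.

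**Figure D3:**
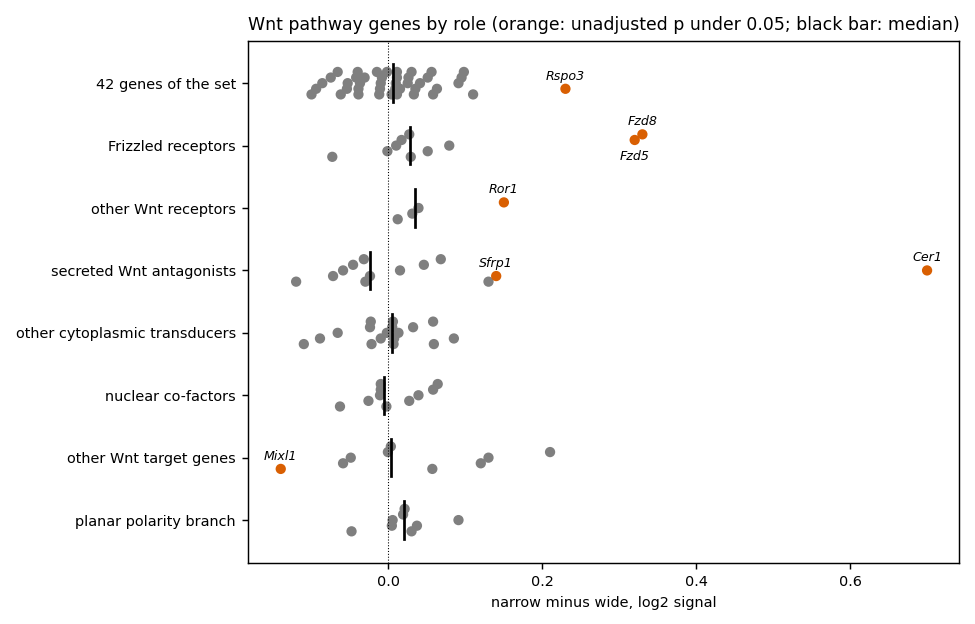
Difference in log2 signal (narrow minus wide) for the 42 genes of the set and for 71 other genes of the pathway by list; each point is a gene, orange points have an unadjusted limma p under 0.05, and black bars are medians. Rspo3 stands to the right of the other 41 genes of the set, and every median lies between -0.024 and 0.035. The farthest point, at 0.70, is the Nodal antagonist Cer1, shown in the list of secreted antagonists.

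A contrast that was larger for many of these genes followed the replicate number. In the pools numbered 1 the signal was lower than in those numbered 2 and 3, averaged over both cavities, for 37 of 42 members, where 61.4% of all genes were lower. The median of this difference was -0.074 over members and -0.024 over all genes. Of the 71 other pathway genes read above, 66.2% were lower, with a median of -0.019. For 21.1% of those 71 both arrays numbered 1 lay below the other 4, so they stood near all genes. All 19 ligands were lower, by 0.036 (Wnt6) to 0.21 (Wnt4). Both arrays numbered 1 lay below the other 4 for 15 members, where 19.9% of all genes did, and above them for 1 member, Porcn, where 12.2% did. The 15 were Wnt1, Wnt2, Wnt2b, Wnt3a, Wnt4, Wnt7b, Wnt8a, Wnt9b, Wnt11, Lrp5, Lrp6, Axin1, Axin2, Lgr5 and Notum.

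The same direction was seen within each cavity. Narrow 1 lay below the mean of narrow 2 and 3 for 35 members (62.8% of all genes), and wide 1 below that of wide 2 and 3 for 33 (55.2% of all genes). Axin2, for example, had a difference of -0.17 between the pools numbered 1 and the rest, against -0.015 between cavities. For other members the cavity difference was the larger, as for Rspo3 (0.23 against 0.12) and Wnt6 (0.11 against -0.036). Higher in the pools numbered 1 than in the rest were Rspo3 (0.12), Porcn (0.089), Tcf7l2 (0.062), Lef1 (0.046) and Lgr4 (0.038).

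Of all genes below the median signal 74.5% were lower in the pools numbered 1, and of those above it 48.2%. Of the members 20 lay below this median, all of them lower in those pools, and 22 above it, 17 of them lower. After quantile normalization of the arrays, an alternative chosen after seeing the data, 51.1% of all genes were lower in the pools numbered 1, but still 36 of 42 members and 19 of 19 ligands. The median over members was then -0.049, and both arrays numbered 1 lay lowest for 10 members and for 14.9% of all genes. The sources used here do not name what a replicate number stands for, and its part in these differences was not tested. Each number occurs in both cavities. Without both arrays numbered 1 the difference of Rspo3 between cavities was 0.26, and limma again called 0 members.

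**Figure D4:**
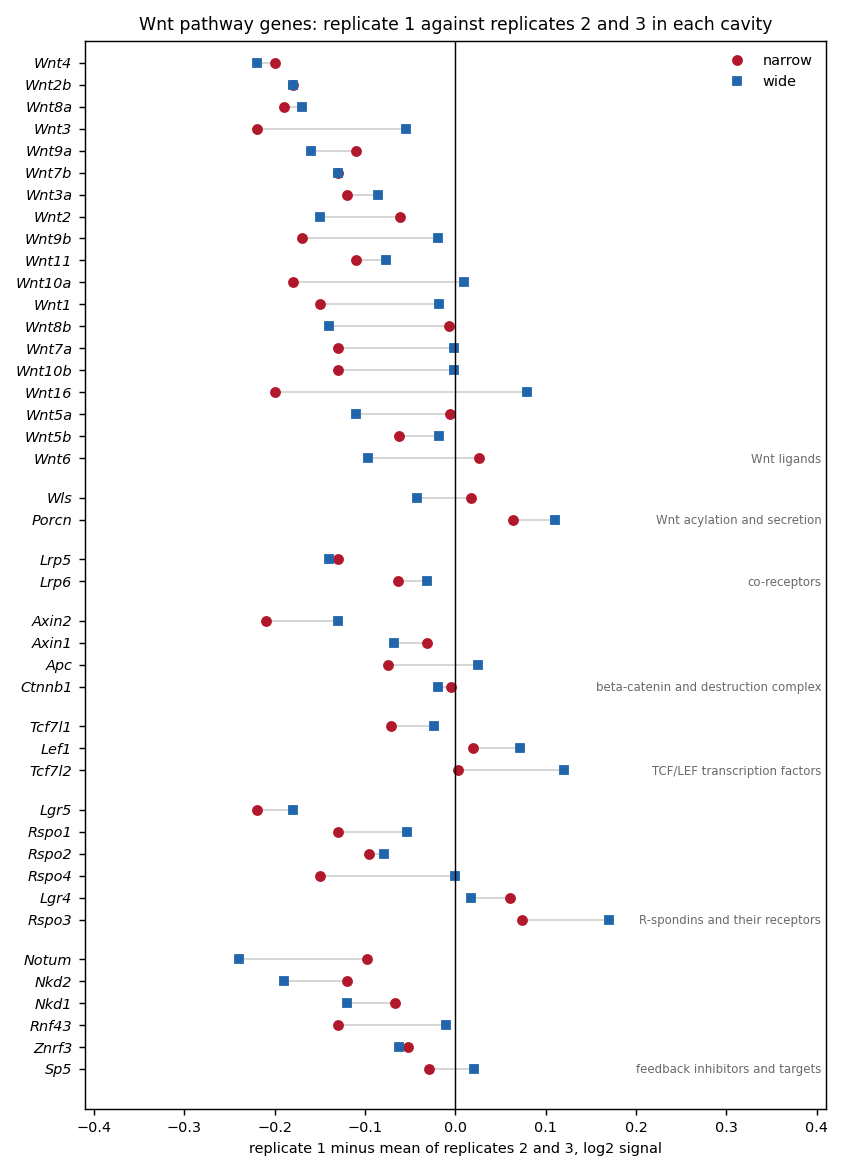
Log2 signal of replicate 1 minus the mean of replicates 2 and 3 in narrow (red circles) and wide (blue squares) cavities for each of the 42 genes, grouped by role; grey lines join both cavities. Most points lie left of 0, 35 of 42 in narrow and 33 of 42 in wide cavities, while both points of Rspo3, Porcn, Tcf7l2, Lef1 and Lgr4 lie right of it.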

How the data were processed

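The authors deposited log2 signals, 1 per array feature and sample. The log2 scale and the scaling between arrays were read from the values; the sources used here do not name the software or the build. Features were named through the platform annotation: of 28853, 21789 named 1 gene, 1621 several and 5443 none. The brightest feature per gene was kept, giving 19938 genes, with no filter on dim genes.

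Narrow was compared with wide by limma 3.58.1 in R 4.3.3 (lmFit and eBayes, defaults, two-sided, no covariate, all 6 arrays), adjusted by Benjamini-Hochberg over all genes with 0.05 as threshold. The script was tested on simulated data. A single gene compared by an exact permutation test of 3 against 3 cannot go below p = 0.1. Deviations from the group means correlated at 0.516, 0.176 and 0.272 between same-numbered arrays, all above 0.1, so numbers were taken as pairs. Narrow 2 with wide 3 reached 0.178. Deviations within a group cancel out, so a contrast of number 1 alone raises the correlations among numbers 2 and 3. The check therefore cannot show that numbers 2 and 3 are paired, and the meaning of a number is not labelled. The members and lists were chosen with earlier results of these data known. All members are named. Values in every sample are given for those with an unadjusted p under 0.05, the 3 with the smallest p in each direction, Wnt3, Axin2, Lef1, Sp5 and Lgr5; those of Wls, Rspo2 and Ror1 were added after values were seen. From each other list up to 2 genes with the smallest p are named. Alternatives were the block, leaving out arrays, filters on dim genes, quantile normalization, trend and robust eBayes, the mean over features, and every feature tested.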

Additional observations from a re-analysis of the deposited data

How the results depend on the processing

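By limma 0 members, 0 other pathway genes and 0 of all genes passed under each of 14 alternatives. The lowest adjusted p of a member was 0.674, with the replicate block. The 1 member higher in narrow at an unadjusted p under 0.05, Rspo3, held this under all 14 and became 2 with the replicate block (Wnt6), with genes above the 50th percentile of signal (Wnt6) and with quantile normalization (Rspo2). When each array was left out the count ran from 1 to 2, with Tcf7l2 added without wide 1 and Wnt6 without wide 3. The 0 members lower became 1, Wnt4, with the replicate block, and with single arrays left out ran from 0 to 1, again Wnt4 without wide 1. The 22 members higher in narrow were 13 of the 22 members that lay above the 50th percentile, a smaller set, and with single arrays left out they were 16 to 30. Members whose groups did not overlap were 1 in each direction with all arrays. They were 7 above and 5 below without both arrays numbered 1, and 1 to 7 above and 1 to 4 below with single arrays left out. Smaller groups separate more readily for any gene, and the matching shares of all genes were not computed. These counts are therefore not read as a result about the members. The median over members ran from -0.031 without wide 1 to 0.032 without narrow 1. Of 563 differences of members, 57 changed sign, none of them called, in 24 members; the largest of these was that of Wnt4. The causes of these changes were not tested. Array background was not measured, which limits what can be said of the 5 dim members.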
